A study of Mus musculus with 18 samples.

Results

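The genes described here are the D-type cyclins Ccnd1, Ccnd2 and Ccnd3, the transcription factor gene Myc, the Cip/Kip inhibitor genes Cdkn1a, Cdkn1b and Cdkn1c, and the INK4 inhibitor genes Cdkn2a, Cdkn2b and Cdkn2c. The 10 genes were chosen as known regulators of entry into the cell cycle, and each was read from the probe set whose only gene symbol was its own. Of the 10 genes, 9 were measured, out of 30142 genes read from the arrays in the same way. The only probe set of Ccnd1 was also annotated to Mir3962, so no value is given for Ccnd1. Each of the other 9 had 1 probe set.

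Lung epithelial cells were taken from adult mice of the strain TCF/Lef:H2B/GFP, 8 to 12 weeks old, in which TCF/Lef binding sites drive a green fluorescent protein (GFP) fused to histone H2B. All 3 groups carried the reporter and were untreated, and by their labels they differed in GFP level. Wnthigh cells were GFP high, Wntlow cells were GFP low and Wntnegative cells were GFP negative, all sorted as DAPI-negative, EpCAM-positive cells after bead depletion of CD31 and CD45 cells. The tissue is labelled distal lung, although the protocol describes lungs processed together with trachea and bronchi. Each array held a pool of 3 to 4 animals, and the labels do not say whether groups of one experiment came from the same animals. The reporter reads TCF/Lef-driven GFP protein, and a histone fusion protein can outlast the signal, so the groups are GFP gates and not a reading of signalling at the moment of the sort.

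Each group had 6 arrays, 3 in each of 2 runs. Wnthigh arrays came from experiments 2, 4 and 5 and from experiments 7, 8 and 9, and Wntlow and Wntnegative arrays from experiments 3, 4 and 5 and from experiments 7, 8 and 9. Values below follow that order of experiments. The deposited values are on a log2 scale, and since they reach 19.93, above the range of a 16-bit scanner, a difference is given as a log2 difference on the deposited scale and not as a ratio of RNA. Array medians ran from 4.55 to 4.68 in the earlier run (experiments 2 to 5) and from 3.50 to 3.65 in the later run (experiments 7 to 9). Beside this offset, array maxima went the other way, from 18.82 to 19.02 and from 19.69 to 19.93. The groups were therefore compared within runs. This used 1 limma fit of all 18 arrays with the group and the run as terms, adjusted by Benjamini-Hochberg over the 30142 genes. The run term removes a shift of each gene and not a difference of scale, so log2 differences of the 2 runs may not share a scale. A gene passed the test at an adjusted p under 0.05. A background limit was set on each array at the 95th percentile of 1382 odorant and vomeronasal receptor probe sets, and lay at 4.66 to 4.89 and at 3.67 to 4.00 in the 2 runs. Levels of different genes are not compared, since probe sets differ in response. The 3 comparisons share their arrays pairwise, so they are not independent of one another.

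D-type cyclins bind Cdk4 and Cdk6 and start the phosphorylation of the retinoblastoma protein, which releases E2F factors and commits a cell to DNA synthesis. INK4 proteins block Cdk4 and Cdk6 directly, while Cip/Kip proteins bind cyclin and kinase together and inhibit Cdk2 complexes above all. Myc drives growth and ribosome production. Ccnd1 and Myc are classic targets of TCF/Lef factors in intestinal epithelium, and p21, the product of Cdkn1a, is a classic target of p53 that marks cells leaving the cycle or under stress.

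Sequences just upstream of the genes are shown for Ccnd3 and Cdkn1b, whose values fell together as described below, and for Cdkn1a, which rose. They are RefSeq windows of the 250 bases before an annotated start, build GRCm38.p6, printed in the direction of transcription with motif matches in capitals. The Ccnd3 window lies at chr17:47504801-47505050 on the plus strand, the Cdkn1b window at chr6:134920151-134920400 on the plus strand and the Cdkn1a window at chr17:29093519-29093768 on the plus strand.
Ccnd3: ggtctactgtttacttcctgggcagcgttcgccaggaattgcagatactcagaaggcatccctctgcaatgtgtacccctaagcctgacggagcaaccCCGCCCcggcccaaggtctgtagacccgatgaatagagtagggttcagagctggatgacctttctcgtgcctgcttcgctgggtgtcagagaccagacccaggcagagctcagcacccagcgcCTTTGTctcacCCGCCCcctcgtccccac
Cdkn1b: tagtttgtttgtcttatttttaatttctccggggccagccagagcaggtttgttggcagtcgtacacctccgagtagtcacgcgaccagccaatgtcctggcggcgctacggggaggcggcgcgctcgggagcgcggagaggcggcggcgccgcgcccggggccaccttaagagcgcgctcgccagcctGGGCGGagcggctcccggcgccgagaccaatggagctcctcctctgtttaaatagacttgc
Cdkn1a: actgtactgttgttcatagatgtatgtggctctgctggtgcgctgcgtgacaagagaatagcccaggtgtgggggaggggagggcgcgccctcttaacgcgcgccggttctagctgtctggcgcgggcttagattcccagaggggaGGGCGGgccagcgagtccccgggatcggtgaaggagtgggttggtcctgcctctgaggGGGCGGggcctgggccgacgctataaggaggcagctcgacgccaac
The letters searched on both strands were CTTTGA or CTTTGT (TCF/LEF), CACGTG (E-box, bound by Myc with Max), TTTGGCGC or TTTCGCGC (E2F) and GGGCGG (GC box, bound by Sp factors). The table held 2 windows each for Ccnd3 and Cdkn1a, and the one printed is that with more matches. The other Ccnd3 window, at chr17:47593217-47593466, held 1 GC box and no TCF/LEF letters, and the other Cdkn1a window, at chr17:29090729-29090978, held no match. In the printed Ccnd3 window the TCF/LEF letters stood 29 to 24 bases before the start, between GC boxes at 152 to 147 and at 18 to 13 bases before it. The Cdkn1b window had 1 GC box, 61 to 56 bases before the start, and the printed Cdkn1a window had 2, at 104 to 99 and at 46 to 41 bases. The table held 10 windows for 6 of the genes (Ccnd3, Cdkn1a, Cdkn1b, Cdkn2a, Cdkn2b and Cdkn2c). Among them 6 held a GC box, against 32.7% of all 32851 windows, and 1 held the TCF/LEF letters, against 27.6%. The E-box and E2F letters were in 0 of the 10 windows, and in 6.02% and 0.654% of all windows. No matches of different motifs overlapped, and a match is a stretch of letters and not evidence of binding.

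Markers of airway and alveolar cells moved with the groups. The mean log2 level of 7 measured ciliated cell markers of 8 listed was 14.65 to 15.02 on Wnthigh, 9.79 to 13.86 on Wntlow and 5.73 to 7.17 on Wntnegative arrays of experiments 2 to 5. In experiments 7 to 9 it was 14.54 to 14.67, 9.26 to 11.37 and 4.37 to 5.18, and all 7 passed the test in all 3 comparisons. For 8 alveolar type II markers the mean level per array was, on Wnthigh, Wntlow and Wntnegative arrays of the earlier run, 12.71 to 16.68, 16.21 to 17.69 and 17.88 to 17.90, and in the later run 11.68 to 15.17, 14.75 to 17.44 and 18.56 to 18.89. Of these 8, 7 were lower in Wnthigh and 3 in Wntlow than in Wntnegative cells. Of 6 alveolar type I markers 5 were lower in Wnthigh than in Wntnegative cells, but Hopx was higher, with 0.60 (SE 0.081, adjusted p = 1.30e-05). All 5 club cell markers were higher in Wnthigh and in Wntlow than in Wntnegative cells. So were Resp18 and Uchl1 among 3 measured neuroendocrine markers of 5 listed. Of all genes 15.7% and 12.3% were higher and 24.6% and 13.2% lower, for Wnthigh and Wntlow in turn. Goblet and mucous markers, 6 of 6 measured, were highest in Wntlow cells, at 12.64 to 13.37 and 13.61 to 14.80, against 7.44 to 11.71 and 8.56 to 8.79 in Wnthigh cells and 5.16 to 5.87 and 4.37 to 5.16 in Wntnegative cells. Both epithelial markers, Epcam and Cdh1, were above background on every array. Pecam1, Cdh5 and Cldn5 of endothelium, Tyrobp, Itgam and Adgre1 of myeloid cells, Cd3e and Ptprc of lymphocytes, Col1a2 of fibroblasts and Trp63 of basal cells were below the limit on every array. Other markers on the same lists were not. Kdr and Esam of the endothelial list and Lyz1 and Cd68 of the myeloid list were above the limit on all 18 arrays. Kdr was higher in Wntlow than in Wntnegative cells by 6.01 (SE 0.48, adjusted p = 5.58e-07) and in Wnthigh by 1.92 (SE 0.48, adjusted p = 0.0042), while Esam was lower in both, with −2.92 (SE 0.52, adjusted p = 0.000572) and −4.26 (SE 0.52, adjusted p = 4.98e-06). Lyz1 and Cd68 were lower in Wnthigh than in Wntnegative cells, with −4.88 (SE 1.003, adjusted p = 0.000809) and −1.49 (SE 0.32, adjusted p = 0.0011). Krt5 of basal cells was above the limit on 16 arrays. The part of cell makeup in the differences below was not tested, and in sorted bulk cells fewer cells of a type and less RNA per cell cannot be told apart.

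Between Wnthigh and Wntnegative cells the inhibitors Cdkn1a and Cdkn1c were higher and Ccnd3, Myc and the inhibitor Cdkn1b were lower in Wnthigh cells. The 5 genes were 2 higher and 3 lower of 9 measured, and in all 5 the 2 groups did not overlap in either run. Among all genes 40.3% passed this test, 15.7% higher and 24.6% lower, and 30.7% did not overlap in either run with the same direction. With so many genes past the test, a share of 5 of 9 is not read as particular to these genes. In Wntlow against Wntnegative cells Cdkn1c was higher and Ccnd3 and Cdkn1b were lower, 3 of 9, against 25.5% of all genes (12.3% higher and 13.2% lower), and Cdkn1c and Ccnd3 did not overlap in either run, as for 15.6% of all genes. In Wnthigh against Wntlow cells Cdkn1a and Cdkn1c were higher and Myc and Cdkn2c lower, 4 of 9, against 27.9% of all genes (11.4% higher and 16.4% lower), but Cdkn2c lay below the background limit throughout. The first 3 of these did not overlap in either run, as for 18.4% of all genes. Of all genes called, 38.9%, 48.2% and 41.1% were higher in the 3 comparisons, which became 52%, 61.9% and 45.6% after quantile normalization over all arrays and 51.3%, 65.2% and 40.4% with arrays centred on their medians. Under both scalings the calls of the 9 genes stayed the same, except that Ccnd2 passed in Wnthigh against Wntlow cells after quantile normalization (adjusted p = 0.0416). A fit without the run term, which leaves the offset between runs in the residuals, called 0 of the 9 genes in each comparison in limma (2, 0 and 1 at an unadjusted p under 0.05).

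**Figure D1:**
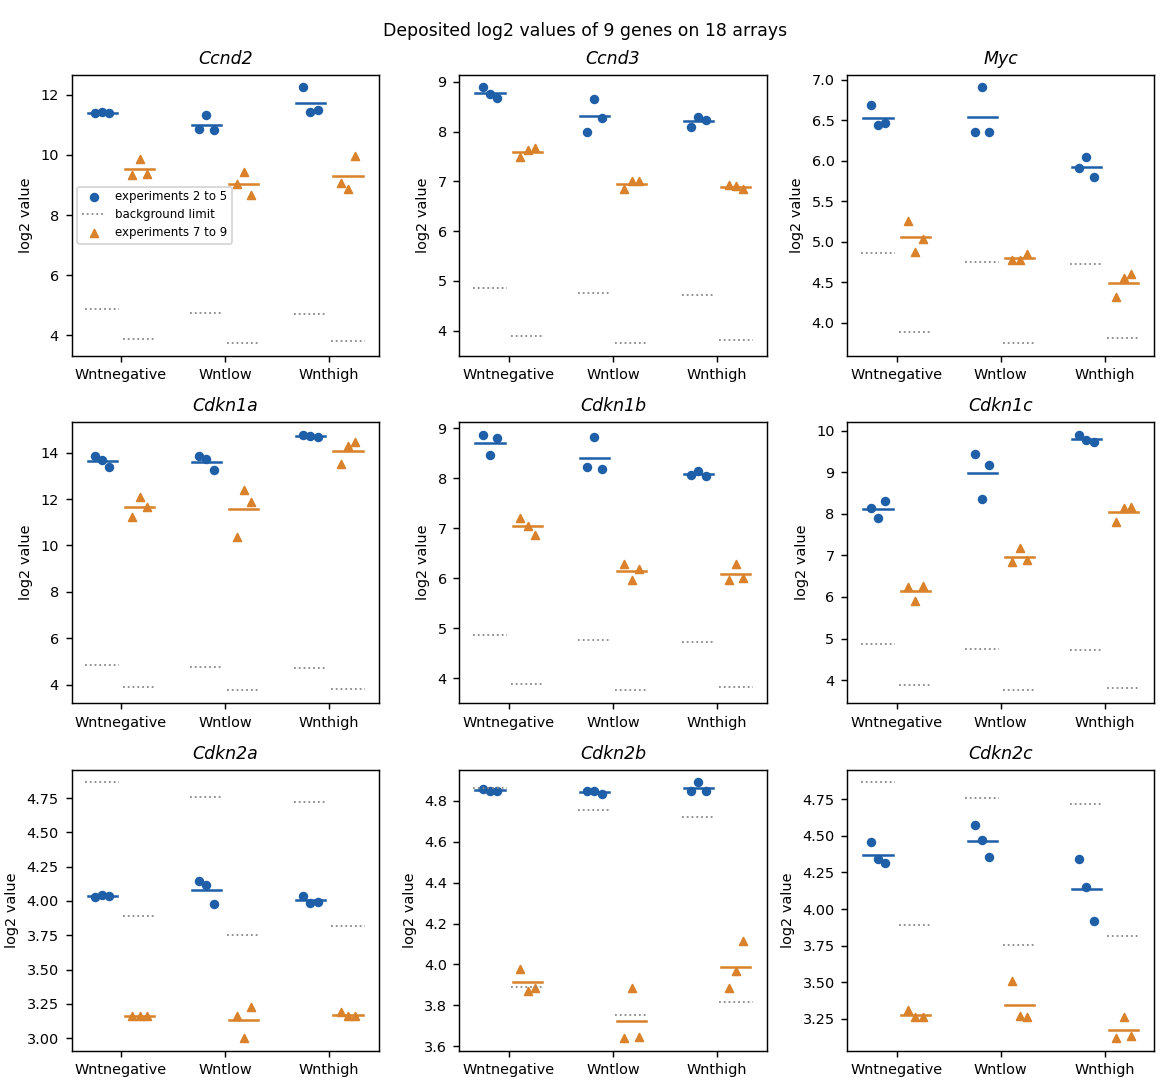
Deposited log2 value (vertical axis) of the 9 measured genes on each of 18 arrays, by group; circles are experiments 2 to 5, triangles experiments 7 to 9, solid bars group means within a run and dotted bars the mean background limit. Cdkn1c stepped up from Wntnegative to Wnthigh in both runs, and Cdkn2a and Cdkn2c lay below the dotted bars.

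Ccnd3 encodes cyclin D3, a cofactor of Cdk4 and Cdk6. Ccnd3 gave 8.10, 8.30 and 8.23 on the Wnthigh, 7.99, 8.65 and 8.27 on the Wntlow and 8.89, 8.75 and 8.68 on the Wntnegative arrays of experiments 2 to 5. For Ccnd3, experiments 7 to 9 gave 6.92, 6.91 and 6.85 on the Wnthigh, 6.85, 7.00 and 7.00 on the Wntlow and 7.50, 7.64 and 7.66 on the Wntnegative arrays. Every Wntnegative array was above every Wnthigh and every Wntlow array of its run. The narrowest gap was in experiments 2 to 5, where the Wntlow array of experiment 4 came close to the Wntnegative arrays. The log2 difference from Wntnegative was −0.63 (SE 0.085, adjusted p = 1.22e-05) in Wnthigh cells, lower in 5 of 5 experiments with both groups, and −0.56 (SE 0.085, adjusted p = 0.00016) in Wntlow cells, lower in 6 of 6. Within runs, Wnthigh minus Wntnegative was −0.56 in experiments 2 to 5 and −0.70 in experiments 7 to 9. Wntlow minus Wntnegative was −0.47 in experiments 2 to 5 and −0.64 in experiments 7 to 9, and experiments 2 to 5 alone did not pass (adjusted p = 0.113). Wnthigh and Wntlow, the lower neighbours in the order of levels, differed by −0.079 (SE 0.085, adjusted p = 0.6), with a 95% interval of −0.26 to 0.10.

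Ccnd2 encodes cyclin D2. Ccnd2 gave 12.25, 11.43 and 11.50 on the Wnthigh, 10.87, 11.32 and 10.82 on the Wntlow and 11.39, 11.44 and 11.39 on the Wntnegative arrays of experiments 2 to 5. For Ccnd2, experiments 7 to 9 gave 9.06, 8.87 and 9.98 on the Wnthigh, 9.02, 9.44 and 8.67 on the Wntlow and 9.34, 9.86 and 9.36 on the Wntnegative arrays. The Wnthigh arrays of experiments 2 and 9 stood above the other arrays of their runs, and Wnthigh and Wntnegative arrays overlapped in both runs. The differences were 0.052 (SE 0.21, adjusted p = 0.87) for Wnthigh against Wntnegative, with a 95% interval of −0.39 to 0.49, and −0.44 (SE 0.21, adjusted p = 0.142) for Wntlow against Wntnegative. The latter was lower in 6 of 6 experiments, and it passed when the fit held only those groups (adjusted p = 0.0489). Wnthigh minus Wntlow was 0.49 (SE 0.21, adjusted p = 0.0964), and without experiment 8 it was 0.70 (adjusted p = 0.0128). The sign of Wnthigh minus Wntnegative differed between the runs, with 0.32 in experiments 2 to 5 and −0.21 in experiments 7 to 9. It also turned without experiment 2, to −0.095, and without experiment 9, to −0.062.

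Myc gave 5.91, 6.04 and 5.80 on the Wnthigh, 6.35, 6.91 and 6.35 on the Wntlow and 6.69, 6.45 and 6.46 on the Wntnegative arrays of experiments 2 to 5. For Myc, experiments 7 to 9 gave 4.32, 4.55 and 4.61 on the Wnthigh, 4.78, 4.78 and 4.85 on the Wntlow and 5.26, 4.87 and 5.04 on the Wntnegative arrays. Every Wnthigh array was below every Wntlow and Wntnegative array of its run, and all 18 arrays were above the background limit. Wnthigh cells were lower by a log2 difference of −0.59 (SE 0.10, adjusted p = 0.000189) against Wntnegative and −0.46 (SE 0.10, adjusted p = 0.00244) against Wntlow, in 5 of 5 experiments each. The former was −0.61 in experiments 2 to 5 and −0.56 in experiments 7 to 9. The latter was −0.62 in experiments 2 to 5 and −0.31 in experiments 7 to 9, and neither run alone passed the test (adjusted p = 0.0525 and 0.109). Wntlow and Wntnegative cells differed by −0.13 (SE 0.10, adjusted p = 0.42), with a 95% interval of −0.35 to 0.092. The Wntlow array of experiment 4 was the highest of its run, and without experiment 4 the difference was −0.24 (adjusted p = 0.0381).

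Cdkn1a encodes p21, which binds cyclin and Cdk2 and also PCNA. Cdkn1a gave 14.77, 14.72 and 14.67 on the Wnthigh, 13.86, 13.74 and 13.23 on the Wntlow and 13.86, 13.70 and 13.40 on the Wntnegative arrays of experiments 2 to 5. For Cdkn1a, experiments 7 to 9 gave 13.52, 14.29 and 14.46 on the Wnthigh, 10.37, 12.41 and 11.89 on the Wntlow and 11.22, 12.07 and 11.67 on the Wntnegative arrays. All 6 Wnthigh arrays were above all other arrays of their run, while the other groups overlapped. Wnthigh cells were higher by 1.75 (SE 0.34, adjusted p = 0.000485) than Wntnegative and by 1.82 (SE 0.34, adjusted p = 0.000552) than Wntlow cells, in 5 of 5 experiments each. The first of these was 1.07 in experiments 2 to 5 and 2.43 in experiments 7 to 9, and the second was 1.11 in experiments 2 to 5 and 2.53 in experiments 7 to 9. Whether the runs differ was not tested, and the 2 runs may not share a scale. Wntlow minus Wntnegative was −0.069 (SE 0.34, adjusted p = 0.912), higher in 3 and lower in 3 of 6 experiments, with a 95% interval of −0.79 to 0.65.

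Cdkn1b encodes p27, an inhibitor whose protein is set largely by its degradation. Cdkn1b gave 8.06, 8.15 and 8.05 on the Wnthigh, 8.22, 8.82 and 8.19 on the Wntlow and 8.87, 8.47 and 8.80 on the Wntnegative arrays of experiments 2 to 5. For Cdkn1b, experiments 7 to 9 gave 5.97, 6.29 and 6.00 on the Wnthigh, 6.29, 5.97 and 6.19 on the Wntlow and 7.21, 7.04 and 6.87 on the Wntnegative arrays. Wnthigh arrays lay below Wntnegative arrays in both runs, while Wntlow arrays lay below them only in experiments 7 to 9. The Wntlow array of experiment 4 was again near the Wntnegative values. Against Wntnegative, the difference was −0.79 (SE 0.13, adjusted p = 0.000116) in Wnthigh and −0.60 (SE 0.13, adjusted p = 0.00285) in Wntlow cells, lower in 5 of 5 and in 5 of 6 experiments. The Wntlow difference was −0.30 in experiments 2 to 5 and −0.89 in experiments 7 to 9, and experiments 2 to 5 alone did not pass (adjusted p = 0.357). Wnthigh and Wntlow cells differed by −0.19 (SE 0.13, adjusted p = 0.354), with a 95% interval of −0.47 to 0.089.

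Cdkn1c encodes p57, the imprinted member of the family, found in many differentiating tissues. Cdkn1c gave 9.90, 9.77 and 9.73 on the Wnthigh, 9.45, 8.36 and 9.16 on the Wntlow and 8.14, 7.89 and 8.31 on the Wntnegative arrays of experiments 2 to 5. For Cdkn1c, experiments 7 to 9 gave 7.81, 8.15 and 8.16 on the Wnthigh, 6.84, 7.18 and 6.89 on the Wntlow and 6.23, 5.91 and 6.27 on the Wntnegative arrays. The groups formed 3 steps with no overlap in either run, Wnthigh above Wntlow above Wntnegative. Wnthigh exceeded Wntnegative by 1.79 (SE 0.15, adjusted p = 7.58e-08), which was 1.68 in experiments 2 to 5 and 1.90 in experiments 7 to 9. Wntlow exceeded Wntnegative by 0.85 (SE 0.15, adjusted p = 0.000483), and Wnthigh exceeded Wntlow by 0.94 (SE 0.15, adjusted p = 0.00013). In experiments 2 to 5 alone, these last differences were 0.87 and 0.81 and did not pass (adjusted p = 0.0872 and 0.0953), while experiments 7 to 9 alone passed. The direction was the same in every experiment that had both groups, 5, 6 and 5 in turn. Ciliated cell markers followed the same order of groups, and the lowest Cdkn1c value of the 3 Wntlow arrays of experiments 2 to 5 was that of experiment 4. Without the Wntlow arrays of experiments 3 and 4, left out after their ciliated markers had been seen, the differences were 1.79, 0.88 and 0.92.

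The INK4 genes were at or near the background. Cdkn2a, which encodes p16 and, from another reading frame, p19Arf, ranged from 3.98 to 4.15 in experiments 2 to 5 and from 3.00 to 3.23 in experiments 7 to 9, below the limit on all 18 arrays. Cdkn2c, which encodes p18, ranged from 3.92 to 4.57 and from 3.12 to 3.51, also below the limit on all 18 arrays. Cdkn2b, which encodes p15, ranged from 4.83 to 4.89 and from 3.64 to 4.12, above the limit on 7 of 9 and on 5 of 9 arrays. Many values repeated exactly, with 6 of 9 Cdkn2a values of experiments 7 to 9 and 6 of 9 Cdkn2b values of experiments 2 to 5 the same to the last deposited digit. The reason for the repeats was not tested. Cdkn2a differed by −0.011 (SE 0.04, adjusted p = 0.857), 0.0048 (SE 0.04, adjusted p = 0.949) and −0.016 (SE 0.04, adjusted p = 0.853) in Wnthigh against Wntnegative, Wntlow against Wntnegative and Wnthigh against Wntlow. Cdkn2b differed by 0.045 (SE 0.055, adjusted p = 0.561), −0.098 (SE 0.055, adjusted p = 0.225) and 0.14 (SE 0.055, adjusted p = 0.0686), the last passing without the Wntlow arrays of experiments 3 and 4 (adjusted p = 0.0353). Cdkn2c passed in Wnthigh against Wntlow at −0.25 (SE 0.068, adjusted p = 0.00964), lower in 5 of 5 experiments, but not without experiment 7 (adjusted p = 0.0534). Wnthigh against Wntnegative was −0.17 (SE 0.068, adjusted p = 0.0603) for Cdkn2c, and it passed with each experiment as a block (adjusted p = 0.0375) and without experiment 2 (adjusted p = 0.0286). With all 18 values under the limit, these Cdkn2c differences are differences between background readings, and no level is read from them.

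**Figure D2:**
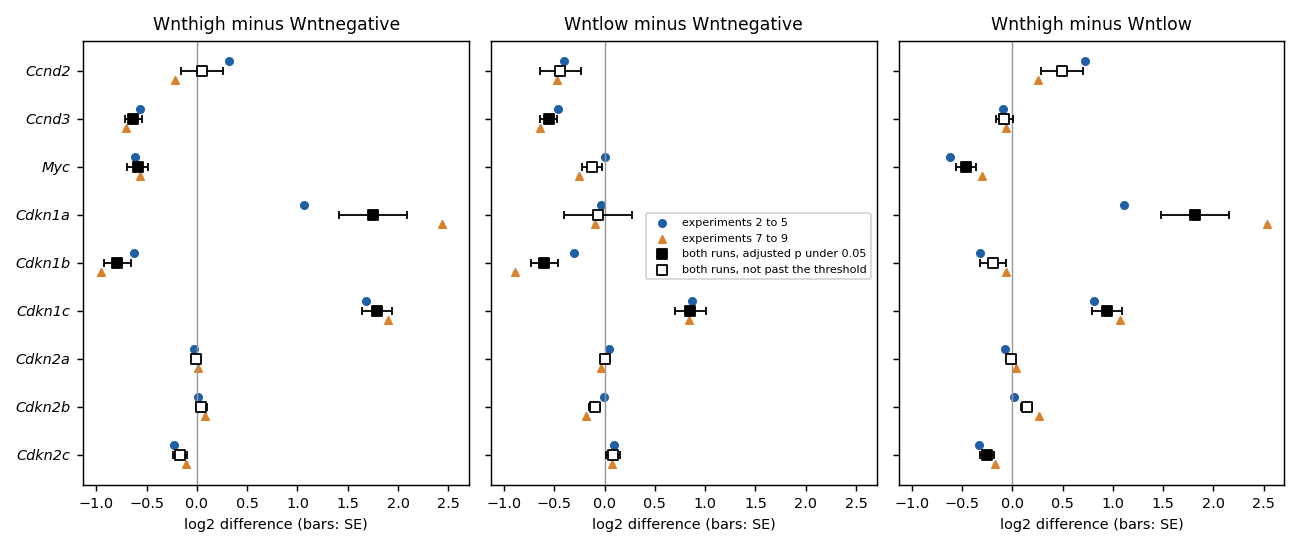
Log2 difference (horizontal axis) of each gene in the 3 comparisons; squares are the fit of both runs with bars of 1 SE, filled where the adjusted p was under 0.05, and circles and triangles the differences within experiments 2 to 5 and 7 to 9. Cdkn1a and Cdkn1c lay furthest to the right in Wnthigh minus Wntnegative, at 1.75 and 1.79, and the run values of Cdkn1a, 1.07 and 2.43, lay furthest apart.

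After each gene was centred on its run, the 9 genes could be set against one another over the 18 arrays, as a description only, since arrays share groups and experiments. Ccnd3 and Cdkn1b went together most closely, with Pearson's r of 0.88, and Myc followed Cdkn1b at 0.80 and Ccnd3 at 0.70. Cdkn1c ran against Ccnd3 at −0.87, against Cdkn1b at −0.83 and against Myc at −0.81. Cdkn1a followed Cdkn1c at 0.73. It ran against Myc at −0.61, and less closely against Cdkn1b at −0.51 and Ccnd3 at −0.40. The largest correlation of Ccnd2 with any of the others was 0.47, with Cdkn2b.

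Among the 30142 genes, with predicted loci and clone names (such as Gm, Rik and LOC) left out, neighbours in pattern were ranked. By Pearson's r over the 18 run-centred arrays, the nearest were as follows. Nearest to Cdkn1c were Spaca9 at 0.99, Ddo at 0.99 and Naaa at 0.99, with Spaca9 above background on 14 arrays and the others on 18. Nearest to Ccnd3 were Ltbp3, Mtss1 and Grpel2, each at 0.98. Cdkn1a was matched by Pygl at 0.96, Cox10 at 0.96 and Dhrs7 at 0.95, and Cdkn1b by Gzf1 at 0.96, Alcam at 0.95 and Actr3 at 0.95. Myc was matched by Ttyh3 at 0.95, Bub1b at 0.95 and Asf1b at 0.95. Ccnd2 had looser neighbours, Slain2 at 0.82, Olfr1321 at 0.81 (above background on 4 of 18 arrays) and Adcy9 at 0.81. Cdkn2b had Tarsl2 at 0.89, Anxa5 at 0.87 and Tagln2 at 0.85. Cdkn2a and Cdkn2c were not matched, being below background.

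The other cyclins, their kinases and Cdkn2d and Cdkn3 were mostly lower in Wnthigh than in Wntlow cells. Of 15 measured (Ccnb1 had no probe set of its own), 1 was higher and 11 were lower in that comparison, with a median log2 difference of −0.75 against −0.013 over all genes. The counts of this list and of those that follow stand against 15.7% higher and 24.6% lower of all genes in Wnthigh against Wntnegative, 12.3% and 13.2% in Wntlow against Wntnegative, and 11.4% and 16.4% in Wnthigh against Wntlow. Against Wntnegative, 2 were higher and 6 lower in Wnthigh cells (median −0.36, all genes −0.047), and 5 higher and 2 lower in Wntlow cells (median 0.28, all genes −0.029). Cdk2, the kinase bound by Cip/Kip inhibitors, fell in Wnthigh cells, with a difference from Wntnegative of −2.30 (SE 0.21, adjusted p = 1.98e-07), and in Wntlow cells with −1.45 (SE 0.21, adjusted p = 0.000106). Ccng2, a cyclin of cells leaving the cycle, also fell, with −1.78 (SE 0.18, adjusted p = 7.89e-07) and −1.03 (SE 0.18, adjusted p = 0.000582). Ccna1, an A-type cyclin best known from germ cells, rose in both, with 3.11 (SE 0.41, adjusted p = 1.04e-05) and 4.31 (SE 0.41, adjusted p = 2.74e-06), from Wntnegative means of 4.64 and 3.91 in the 2 runs, at or near the background limit. Ccnh, the partner of Cdk7, fell from Wntlow to Wnthigh with −0.80 (SE 0.11, adjusted p = 2.41e-05), as did Ccng1 with −1.04 (SE 0.14, adjusted p = 2.95e-05) and the mitotic kinase Cdk1 with −1.13 (SE 0.20, adjusted p = 0.000271). Of the kinases of D-type cyclins, Cdk4 was the 1 gene higher in Wnthigh than in Wntlow cells, with 0.28 (SE 0.096, adjusted p = 0.0369). Against Wntnegative, Cdk4 was higher by 0.56 (SE 0.096, adjusted p = 0.000142) in Wnthigh and 0.28 (SE 0.096, adjusted p = 0.0414) in Wntlow cells. Cdk6 was lower in Wnthigh than in Wntlow cells, with −0.72 (SE 0.17, adjusted p = 0.00294). Ccne1, 1 of the 6 lower in Wnthigh than in Wntnegative cells, had both group means at or under the background limit in both runs. Without the 2 Wntlow arrays, 9 were lower in Wnthigh than in Wntnegative cells, and 0 were higher and 9 lower than in Wntlow cells. With median centring 0 were likewise higher in Wnthigh than in Wntlow cells, and with each experiment as a block 8 were lower.

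Of 13 pocket protein and E2F genes, 5 were higher and 4 lower in Wnthigh than in Wntnegative cells (median 0.026), 4 higher and 1 lower in Wntlow than in Wntnegative cells (median 0.039), and 3 higher and 4 lower in Wnthigh than in Wntlow cells (median −0.085). Rb1, the retinoblastoma gene that cyclin D kinases act on, rose in Wnthigh cells, with 0.94 (SE 0.082, adjusted p = 1.32e-07) against Wntnegative and 0.65 (SE 0.082, adjusted p = 1.97e-05) against Wntlow, and in Wntlow cells with 0.29 (SE 0.082, adjusted p = 0.0155). E2f2, an activator E2F, fell in Wnthigh cells, with −1.71 (SE 0.18, adjusted p = 1.14e-06) and −1.29 (SE 0.18, adjusted p = 4.58e-05), while Tfdp2, an E2F partner, rose with 0.44 (SE 0.058, adjusted p = 1.20e-05) and 0.47 (SE 0.058, adjusted p = 1.68e-05). E2f7, a repressor E2F, and E2f5 rose in Wntlow cells, with 0.72 (SE 0.10, adjusted p = 8.47e-05) and 0.54 (SE 0.13, adjusted p = 0.00481). They also rose in Wnthigh against Wntnegative cells, with 0.53 (SE 0.10, adjusted p = 0.000429) and 0.81 (SE 0.13, adjusted p = 6.26e-05). Wnthigh and Wntlow cells differed by −0.19 (SE 0.10, adjusted p = 0.198) and 0.28 (SE 0.13, adjusted p = 0.132). Of the 4 lower in Wnthigh than in Wntnegative cells, E2f1 and E2f8 had both group means at or under the background limit in both runs, so these are differences between background readings. The number lower in Wnthigh than in Wntnegative cells was 1 with each experiment as a block and 1 under either scaling. The number lower in Wntlow than in Wntnegative cells was 2 with that block and 0 under either scaling.

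Of 10 measured genes of the Myc family and partners (Mycl was not measured, and Mycn was below the limit on all arrays), 2 were higher and 5 lower in Wnthigh than in Wntnegative cells (median −0.24). In Wntlow against Wntnegative 0 were higher (0 also at an unadjusted p under 0.05 in limma) and 2 lower (median −0.09), and in Wnthigh against Wntlow 2 were higher and 2 lower (median −0.15). The 5 included Mycn, whose difference of −0.16 (SE 0.037, adjusted p = 0.00211) is one between background readings. Max, the partner Myc needs to bind DNA, fell in both, with −0.57 (SE 0.095, adjusted p = 0.000124) in Wnthigh and −0.37 (SE 0.095, adjusted p = 0.00901) in Wntlow cells. Mxd1, a Max partner that opposes Myc, fell too, with −1.83 (SE 0.18, adjusted p = 5.69e-07), −1.13 (SE 0.18, adjusted p = 0.000264) and, from Wntlow to Wnthigh, −0.69 (SE 0.18, adjusted p = 0.00844). Mxd4 fell in Wnthigh cells with −0.55 (SE 0.081, adjusted p = 3.19e-05) and −0.46 (SE 0.081, adjusted p = 0.000339), whereas Mxi1, also a Max partner opposing Myc, rose with 0.59 (SE 0.092, adjusted p = 5.35e-05) and 0.40 (SE 0.092, adjusted p = 0.0028). With each experiment as a block 1 was higher in Wnthigh than in Wntnegative cells, and after quantile normalization 1. With median centring 1 was higher in Wntlow than in Wntnegative cells, and without the 2 Wntlow arrays 1 was higher in Wnthigh than in Wntlow cells.

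Among 14 measured ribosome biogenesis and metabolic genes often bound by Myc (Nop56 was not measured), 3 were higher and 4 lower in Wnthigh than in Wntnegative cells (median −0.10), 4 higher and 0 lower (where 1 had p under 0.05 before adjustment in limma) in Wntlow than in Wntnegative cells (median 0.13), and 1 higher and 7 lower in Wnthigh than in Wntlow cells (median −0.24). Odc1, the first enzyme of polyamine synthesis, rose in Wnthigh cells, with 1.97 (SE 0.23, adjusted p = 2.31e-06) and 1.52 (SE 0.23, adjusted p = 6.92e-05). Any link of this list to the level of Myc was not tested. Fbl, the methyltransferase of nucleolar RNA, rose in both, with 0.91 (SE 0.13, adjusted p = 2.74e-05) and 0.88 (SE 0.13, adjusted p = 0.000137). Cad, an enzyme of pyrimidine synthesis, fell with −0.48 (SE 0.087, adjusted p = 0.000277) and −0.55 (SE 0.087, adjusted p = 0.000114), and the nucleolar Npm1 fell from Wntlow to Wnthigh with −0.71 (SE 0.10, adjusted p = 5.83e-05). Nop58 and Mybbp1a rose in Wntlow cells, with 0.61 (SE 0.11, adjusted p = 0.00061) and 0.28 (SE 0.084, adjusted p = 0.0221). Nop58 also rose in Wnthigh against Wntnegative cells, with 0.36 (SE 0.11, adjusted p = 0.0147). After quantile normalization 4 of the list, not 7, were lower in Wnthigh than in Wntlow cells.

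Of 13 measured genes often induced by p53 together with Cdkn1a (Bax and Gdf15 were not, and Eda2r and Pmaip1 were never above the limit), 3 were higher and 4 lower in Wnthigh than in Wntnegative cells (median −0.063), and 3 higher and 4 lower in Wnthigh than in Wntlow cells (median −0.062). The shares of all genes were 15.7% and 24.6%, and 11.4% and 16.4%, and nothing is read as particular to the list from the split. Mdm2, the ligase that degrades p53, rose in Wnthigh cells with 1.78 (SE 0.19, adjusted p = 1.13e-06) against Wntnegative, and Trp53inp1 rose with 1.73 (SE 0.15, adjusted p = 1.45e-07) against Wntnegative and 1.31 (SE 0.15, adjusted p = 1.05e-05) against Wntlow. Plk2, a polo-like kinase, fell with −4.29 (SE 0.49, adjusted p = 2.54e-06) and −4.27 (SE 0.49, adjusted p = 9.97e-06), and its Wnthigh arrays of experiments 2 to 5 spread by an SD of 1.86 around 8.61. In Wntlow against Wntnegative 1 was higher and 1 lower (median −0.0034). The former was Ccng1, with 0.69 (SE 0.14, adjusted p = 0.00168), and the latter Sesn1, with −0.32 (SE 0.11, adjusted p = 0.0373), which did not pass under either scaling (adjusted p = 0.0796 and 0.111). The number higher was 3 with each experiment as a block, after quantile normalization and without the 2 Wntlow arrays, and 4 with median centring.

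Of 15 measured regulators of the stability or transcription of these genes (Trp53 was not measured), 6 were higher and 7 lower in Wnthigh than in Wntnegative cells (median −0.11), 3 higher and 5 lower in Wntlow than in Wntnegative cells (median −0.0074), and 3 higher and 5 lower in Wnthigh than in Wntlow cells (median 0.047). Foxo3, a transcription factor that can induce Cdkn1b, fell against Wntnegative, with −2.30 (SE 0.22, adjusted p = 3.13e-07) in Wnthigh and −1.08 (SE 0.22, adjusted p = 0.00158) in Wntlow cells. Foxo1, on the same list, was higher in Wnthigh cells, with 0.42 (SE 0.15, adjusted p = 0.0378) against Wntnegative and 0.80 (SE 0.15, adjusted p = 0.000596) against Wntlow. Its Wnthigh and Wntnegative means were 10.31 and 10.30 in experiments 2 to 5. Against Wntnegative, Smad3, which carries TGF-beta signals to Cdkn2b and Myc, fell in Wnthigh cells with −0.87 (SE 0.096, adjusted p = 1.60e-06) and in Wntlow cells with −0.31 (SE 0.096, adjusted p = 0.0243). Bmi1, a repressor of Cdkn2a, fell in Wntlow cells with −0.94 (SE 0.16, adjusted p = 0.000309) and in Wnthigh cells with −0.67 (SE 0.16, adjusted p = 0.0023). Skp2, of the ligase that degrades p27, rose in Wnthigh cells with 0.32 (SE 0.061, adjusted p = 0.00044) against Wntnegative. Against Wntlow the Skp2 difference was 0.11 (SE 0.061, adjusted p = 0.218). Its cofactor Cks1b was lower in Wnthigh cells, with −0.64 (SE 0.14, adjusted p = 0.00172) against Wntnegative and −1.19 (SE 0.14, adjusted p = 1.28e-05) against Wntlow. Klf5 was lower in Wnthigh than in Wntlow cells, with −1.67 (SE 0.23, adjusted p = 3.40e-05). Usp28, a deubiquitinase that can stabilise Myc protein, was higher in that comparison, with 0.75 (SE 0.12, adjusted p = 0.000142). Foxo4 was lower in Wntlow cells with −0.22 (SE 0.056, adjusted p = 0.00729), and did not pass under either scaling (adjusted p = 0.244 and 0.0857). With each experiment as a block 3 of the list were higher in Wnthigh than in Wntnegative cells, and under either scaling 3 were lower in Wntlow than in Wntnegative cells.

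S and M phase genes were mostly lower in Wnthigh cells than in either other group. Of 17 measured (Mcm7 was not), 0 were higher (0 also at an unadjusted p under 0.05 in limma) and 12 lower in Wnthigh than in Wntnegative cells (median −0.999, all genes −0.047), and 1 higher (Mcm4) and 15 lower in Wnthigh than in Wntlow cells (median −0.78, all genes −0.013). In Wntlow against Wntnegative 0 were higher (2 at an unadjusted p under 0.05 in limma) and 3 lower (median −0.08, all genes −0.029). Tyms, which makes thymidylate, fell in Wnthigh cells with −1.46 (SE 0.12, adjusted p = 8.21e-08) against Wntnegative and −1.03 (SE 0.12, adjusted p = 1.18e-05) against Wntlow. Tk1, thymidine kinase, fell with −0.96 (SE 0.11, adjusted p = 1.90e-06), and the spindle checkpoint kinase Bub1 with −2.18 (SE 0.24, adjusted p = 1.75e-06). Bub1 was above the limit on 15 of 18 arrays, and its Wnthigh mean of 3.74 in experiments 7 to 9 lay under the limit, so the difference there is from a background reading. Aurkb and Birc5, both among the 15 lower and Birc5 also among the 12, were above the limit on 4 of 18 arrays each. In experiments 7 to 9 all their group means lay under the limit. Mki67, the gene of the proliferation marker Ki-67, fell from Wntlow to Wnthigh with −3.60 (SE 0.50, adjusted p = 3.93e-05), from 10.20 ± 1.15 to 5.90 ± 1.43 (SD, n = 3) in experiments 2 to 5 and from 6.72 ± 0.44 to 3.81 ± 0.26 (SD, n = 3) in experiments 7 to 9, where the mean of the Wnthigh arrays was at the background limit. Pcna, the sliding clamp that p21 also binds, fell with −0.59 (SE 0.09, adjusted p = 9.08e-05). Wntlow cells were below Wntnegative in Bub1 with −1.34 (SE 0.24, adjusted p = 0.000651), in Tk1 with −0.51 (SE 0.11, adjusted p = 0.00205) and in Tyms with −0.43 (SE 0.12, adjusted p = 0.0163), the last not passing after quantile normalization (adjusted p = 0.1). With each experiment as a block 1 was higher and 5 lower in Wntlow than in Wntnegative cells, and 0 higher in Wnthigh than in Wntlow cells, as under either scaling. Without the 2 Wntlow arrays 15 were lower in Wnthigh than in Wntnegative cells, and 5 in Wntlow. Of the 95 genes of these lists, 9 had 1 identical value on the 3 Wntlow arrays of experiments 7 to 9, namely Tk1, Mcm2, Aurkb, Birc5, Ccng2, E2f1, Max, Zmat3 and Foxo3, as did 8.17% of all genes. On the Wnthigh and Wntnegative arrays of that run 6 and 4 list genes had such repeats, and in experiments 2 to 5 the 3 groups had 0, 1 and 1.

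**Figure D3:**
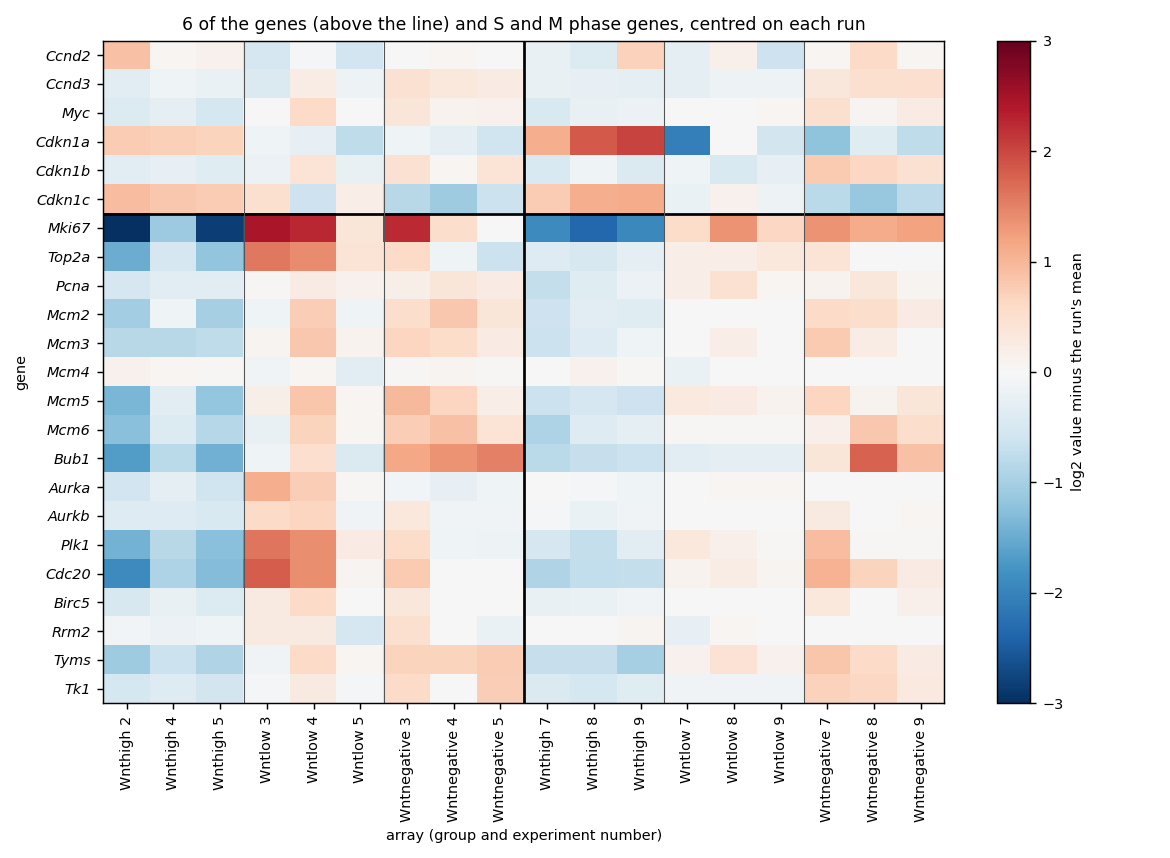
Log2 value minus the mean of its run, in colour (scale from −3 to 3), for 6 of the 9 genes above the line and 17 S and M phase genes below it, on 18 arrays in columns, experiments 2 to 5 to the left of the thick line. On the Wnthigh arrays Cdkn1a and Cdkn1c are red, Ccnd3, Myc and Cdkn1b pale blue and most S and M phase genes blue. Mki67 is the most variable row.

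**Figure D4:**
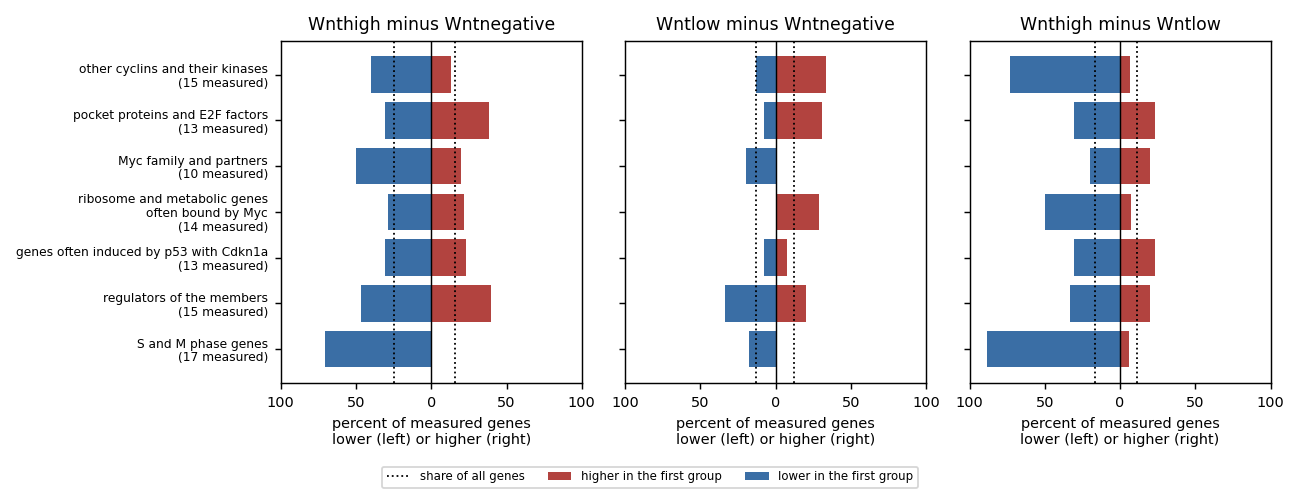
Percent of the measured genes of each list that passed the test as higher (red, to the right) or lower (blue, to the left) in the first group of each comparison, with dotted lines at the share of all genes. S and M phase genes were lower in 12 of 17 and 15 of 17 cases in the comparisons of Wnthigh cells, against 24.6% and 16.4% of all genes.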

How the data were processed

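Total RNA of 18 sorted pools, 8 ng each, was amplified and labelled for Affymetrix WT Pico arrays, per the labels' protocols. The authors deposited log2 intensities of 72688 probe sets, computed with RMA per the submitters' processing notes. Software version, chip library and build: not given in the sources used here. The runs differ by more than an offset in the deposited values, with lower array medians and higher array maxima in the later run.

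Control probe sets were left out. Of the other 65956, 30604 had 1 symbol in the platform annotation, 2146 several and 33206 none. Genes were read from probe sets with 1 symbol, by the highest mean where several existed (355 genes), which gave 30142 genes, with 827 symbols updated through gene identifiers. Group and run were fitted on all 18 arrays with limma 3.58.1 under R 4.3.3, by lmFit and eBayes with two-sided tests, with 14 residual degrees of freedom. Python 3.11.15 computed the rest. P-values measure spread between pools of separate experiments. Array numbers limit the precision.

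Lists name up to 3 called genes per comparison by the largest moderated statistic. Mcm4, Foxo1, Cdk4 and Cdk6 were added after their values were seen. So were Max, Cks1b, E2f5, E2f7, Nop58 and Bmi1 in Wnthigh against Wntnegative, and Smad3 in Wntlow against Wntnegative. Skp2, E2f5 and E2f7 in Wnthigh against Wntlow were added likewise. The neighbours in pattern are the 3 genes with the highest r after predicted loci and clone names were left out. The genes and lists were chosen with earlier results of these data known. The labels give an experiment number shared across groups, which pairs arrays. Residuals of same-numbered arrays from group means correlated at 0.486 to 0.802 (16 pairs), and within runs at 0.003 to 0.516, above 0.1 in 12 of 16. On simulated data of Wnthigh against Wntnegative with 30142 genes, 23, 42, 47 and 50 of 50 genes changed by 0.5, 1, 2 and 4 were recovered. The simulated noise was independent between arrays. The changed genes were drawn from brighter genes and were far fewer than those called in the data. The counts are therefore a check of the fit and not its power in these data.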

Additional observations from a re-analysis of the deposited data

Results flagged for a closer look

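In 6 of 27 groups of 6 arrays, 1 array lay further from the others, after centring each gene on its run, than Dixon's 95% critical value allows (the ratio is the gap over the group's range). Chance alone does so in about 1 in 20 groups of independent values from 1 normal distribution. Each group here joins 2 runs, and some values repeat exactly, so 6 of 27 is not set against that rate. The Wntlow array of experiment 4 stood high for Myc, at 0.577 above its run's mean (ratio 0.876, others −0.008 to 0.065), and for Cdkn1b, at 0.419 (ratio 0.63, others −0.46 to −0.134). The Wntlow array of experiment 7 stood low for Cdkn1a, at −2.061 (ratio 0.639, others −0.759 to −0.023), with a log2 value of 10.37. Experiment 7 also gave the lowest Cdkn1a value of the later run within the Wnthigh and within the Wntnegative group. The Wntnegative array of experiment 8 stood high for Ccnd2, at 0.569 (ratio 0.907, others 0.016 to 0.067). Near the background, the Wntnegative array of experiment 3 stood low for Cdkn2a, at −0.015 (ratio 0.644), and that of experiment 7 stood high for Cdkn2b, at 0.104 (ratio 0.857), among values that repeat exactly on many arrays.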

How the results depend on the processing

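Of 507 member values under other settings, 459 kept direction and side of the threshold, 22 lost the call, 7 gained it and 19 changed sign. With no block the counts past the threshold were 2824, 1061 and 1351 genes for Wnthigh against Wntnegative, Wntlow against Wntnegative and Wnthigh against Wntlow, and 0 of the 9 genes in each (2, 0 and 1 at an unadjusted p under 0.05), since the offset between runs then stays in the residuals. Experiments 2 to 5 alone gave 2532 genes and 0 of the 9 (2 at an unadjusted p under 0.05, limma) for Wntlow against Wntnegative, and 3291 genes and 1 of the 9 for Wnthigh against Wntlow. Experiments 7 to 9 alone gave 7906 and 4471 genes for the comparisons with Wntnegative and 2 of the 9 for Wnthigh against Wntlow. With the replicate block, to which the Wnthigh array of experiment 2 adds nothing, Ccnd2 changed sign in Wnthigh against Wntnegative, to −0.12, and Cdkn2c passed there, at −0.18; the replicate block changed no other call of the 9 genes. Sign changes of values that did not pass were as follows. Ccnd2 in Wnthigh against Wntnegative was −0.21 in experiments 7 to 9 alone. Cdkn2a there was 0.0096 in experiments 7 to 9 alone, 0.039 after quantile normalization and 0.055 with median centring. In Wntlow against Wntnegative, Myc was 0.0029 in experiments 2 to 5 alone, Cdkn1a 0.0031 with median centring, and Cdkn2a −0.031 in experiments 7 to 9 alone and −0.045 without the Wntlow arrays of experiments 3 and 4. In Wnthigh against Wntlow, Cdkn2a was 0.041 in experiments 7 to 9 alone and 0.034 without those Wntlow arrays. The causes were not tested. Leaving out each experiment in turn gave 10772 to 11618, 6071 to 7660 and 7178 to 8582 genes, and 5 to 6, 3 to 4 and 3 to 5 of the 9. It moved Ccnd2 in Wnthigh against Wntnegative from −0.095 to 0.26, Cdkn1a and Cdkn2a in Wntlow against Wntnegative from −0.15 to 0.088 and from −0.018 to 0.038, and Cdkn2a in Wnthigh against Wntlow from −0.051 to 0.0076. All called genes above background passed in all 7 of these fits. The list counts and the genes named from them were not refitted in this way. The filter on dim genes gave no value for Cdkn2a and Cdkn2c. The omission of the Wntlow arrays was chosen after seeing the data.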
